A study of Mus musculus with 10 samples.

Results

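Keratins are the intermediate filament proteins of epithelial cells, and 10 of them that mark ductal and squamous epithelium were followed here in orthotopic pancreatic tumors. They were taken by gene symbol from the mouse Ensembl identifiers of the deposited table, which gave 10 of its 55359 genes, and none was chosen by its level. Krt7, Krt8, Krt18 and Krt19 belong to simple and ductal epithelium, Krt20 and Krt23 to gastrointestinal and some glandular epithelium, and Krt5, Krt14, Krt17 and Krt80 to basal, squamous or stressed epithelium. A keratin filament forms from pairs of a type I and a type II protein, so that Krt8 (type II) pairs with Krt18 (type I) in simple epithelium and Krt5 (type II) pairs with Krt14 (type I) in basal cells. The normal pancreatic duct carries the simple keratins and Krt19 and Krt7 are common markers of ductal adenocarcinoma, while basal and squamous keratins mark a squamous kind of pancreatic cancer.

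The tumors grew from K8484 cells, a single luciferase-expressing KPC line, which derives from a pancreatic tumor of a genetically engineered mouse with a Cre driven by the Pdx1 promoter. All were injected into the tail of the pancreas of immunocompetent C57BL/6J mice (C57BL/6 in the labels) at 10 weeks of age. The methods state equal numbers of both sexes for such experiments, and the labels give no sex for these tumors. The sample titles call the tumors PDX (patient-derived xenograft), whereas the source label and the methods name the mouse KPC line. The comparison asked how a high supply of glucose changes the tumor. The 5 normoglycemic tumors (CTRL) came from mice on regular water, and the 5 hyperglycemic tumors (D30) from mice that drank 30% dextrose water for 14 days. Both groups therefore share the line, the site and the host strain. Every level below is one of whole tumor, in which fewer cells of a type and less RNA per cell cannot be told apart. Table columns starting with N were taken as CTRL and those starting with T as D30, the only other group, and since their numbers are not the replicate numbers of the labels, tumors are called N1 to T7 here without tying them to an animal. The labels give no statement that tumors of a group came from separate experiments, so p-values measure only the spread between these tumors.

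Each value is a normalized count, the reads of a gene divided by 1 size factor of the tumor, and 29192261 to 42122304 reads per tumor lay behind them. D30 tumor T4 stood apart from the others, and CTRL tumor N1 did so to a lesser degree. The median level of the 2440 most GC-rich of 12200 genes minus that of the 2440 most GC-poor, relative to the mean of all tumors, was -1.29 on the log2 scale in T4 and -0.73 in N1, against 0.06 to 0.49 in the other 8 tumors. The same contrast of long and short genes was -1.12 in T4 and -0.28 to 0.54 in the other 9. Y-linked transcripts, summed over 4 genes, were at 973 normalized counts in T4 and at 0 in the other 9 tumors. The host sex of T4 may thus differ from that of the others, and its part in the T4 values was not tested. D30 tumor T5 had the fewest genes with a read (20482, against 23446 to 25912). Keratin results that rest on T4, or on T4 and T5, are therefore given with and without them.

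The epithelial label of the tumors was checked first. The sum of the 10 keratins took 0.698%, 0.716%, 1.04%, 0.673% and 0.821% of all reads in the CTRL tumors (mean 0.790% ± 0.152, SD, n = 5) and 1.24%, 1.01%, 1.01%, 1.31% and 1.06% in the D30 tumors (1.13% ± 0.139, n = 5). Cdh1, which encodes the adherens junction protein E-cadherin, stood at 15241 to 21618 normalized counts in CTRL and 19815 to 33811 in D30. Epcam, another common epithelial marker, was low, at 15.9 to 191 normalized counts in CTRL and 0 to 62.5 in D30. Vim, the mesenchymal filament protein vimentin, stood at 60323 to 86805 normalized counts in CTRL and 48451 to 139039 in D30. In counts not divided by length its D30 mean was 78801, below Krt8 (131763), Krt18 (107376) and Krt19 (95514.5). Its CTRL mean was 69788, below Krt8 (85913) but above Krt18 (56807) and Krt19 (63037). The tumors thus held abundant transcripts of simple keratins, E-cadherin and vimentin side by side, with little Epcam.

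Simple keratins made up nearly all keratin transcript. Divided by the merged exon length of each gene, Krt8 was 33.3% ± 4.01 (SD, n = 5) of the summed level of the 10 keratins in CTRL, Krt18 30.3% ± 3.79 and Krt19 25.8% ± 2.80. Krt20 held 6.35% ± 1.14, Krt7 2.33% ± 0.214 and Krt23 1.76% ± 0.457 of the same length-adjusted sum. The 4 basal and squamous keratins were each under 0.1% in CTRL, with Krt14 at 0.0647% and Krt80 at 0.0443%. Their D30 means were 0.141% ± 0.103 for Krt14 (0.304% in T1) and 0.0446% for Krt80. In D30 the mean shares were led by Krt18 at 34.4% ± 7.37, Krt8 at 31.1% ± 7.35 and Krt19 at 24.2% ± 4.24, and for each the SD in D30 was larger than the distance from CTRL. Krt18 led Krt8 there through T4: without T4, Krt8 was at 34.3% ± 1.93 (n = 4), Krt18 at 31.4% ± 3.01 and Krt19 at 25.2% ± 4.18, in the order of CTRL. Neighbours in the order from Krt8 to Krt19 lay less than 2 SD apart in both groups, whereas the step from Krt19 down to Krt20 was several times the SD. The share of Krt7 depends on the length used, since its merged exons span 7.05 kb and its principal transcript 4.09 kb, and over principal transcripts it was 3.77% in CTRL and 4.91% in D30. Its place between Krt20 and Krt23 was the same with both lengths.

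**Figure D1:**
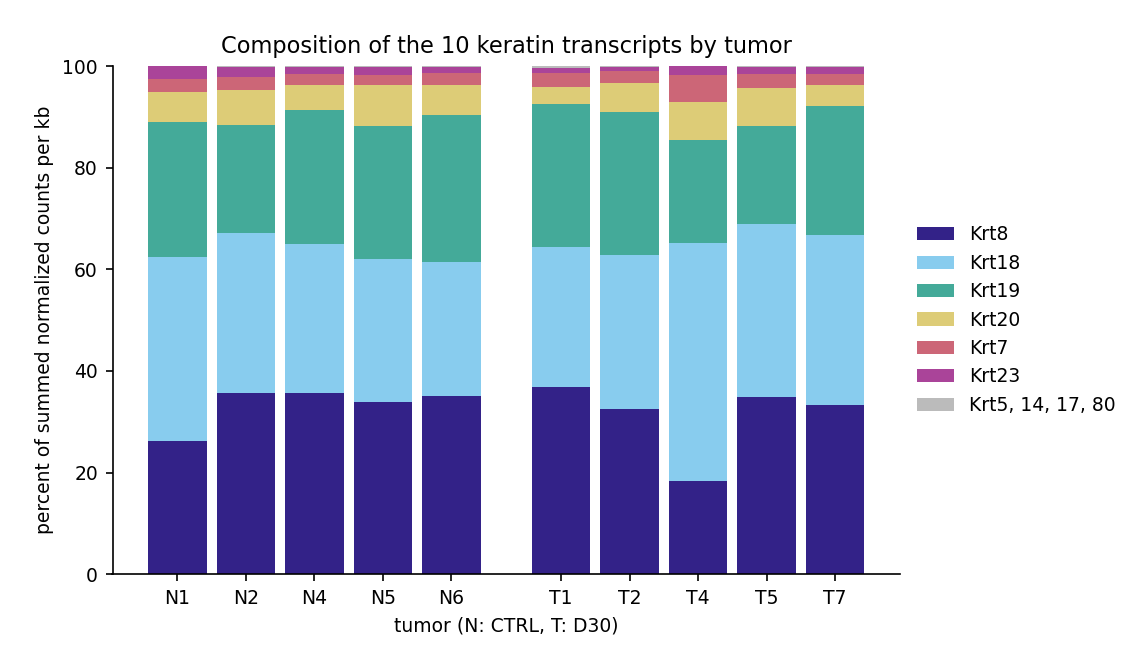
Share of each keratin in the summed length-adjusted level of the 10 keratins (y axis, percent of normalized counts per kb) in each CTRL (N) and D30 (T) tumor. Krt8, Krt18 and Krt19 fill most of every bar, and T4 differs from the other tumors by its small Krt8 share (18.4%) and large Krt18 share (46.8%).

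Across the groups, 9 of the 10 keratins had a higher mean log2 level in D30, with a median difference of 0.62 on the log2 scale over the 10, against -0.06 over the 24560 genes tested. None of the 10 passed an adjusted p of 0.05 in limma over all genes, where 2.76% of genes did, and 5 of the 10 had an unadjusted p under 0.05 (Krt7, Krt18, Krt14, Krt19 and Krt8), against 17.3% of all genes. The groups did not overlap for 2 of the 10, Krt7 and Krt18, against 6.19% of all genes tested. edgeR on the recovered reads called none of the 8 keratins that passed its filter (4.13% of all genes it tested were called) and gave 6 with an unadjusted p under 0.05, against 20.1% of all genes. DESeq2 on the same reads called 3 (Krt7, Krt18 and Krt14), in a test that called 8.52% of all genes. limma without T4 called the same 3, with 6.43% of all genes called, and limma without T4 and T5 called 1, Krt14, with 9.97% of all genes called. The call of a difference for these 3 keratins therefore turns on the test and on T4.

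**Figure D2:**
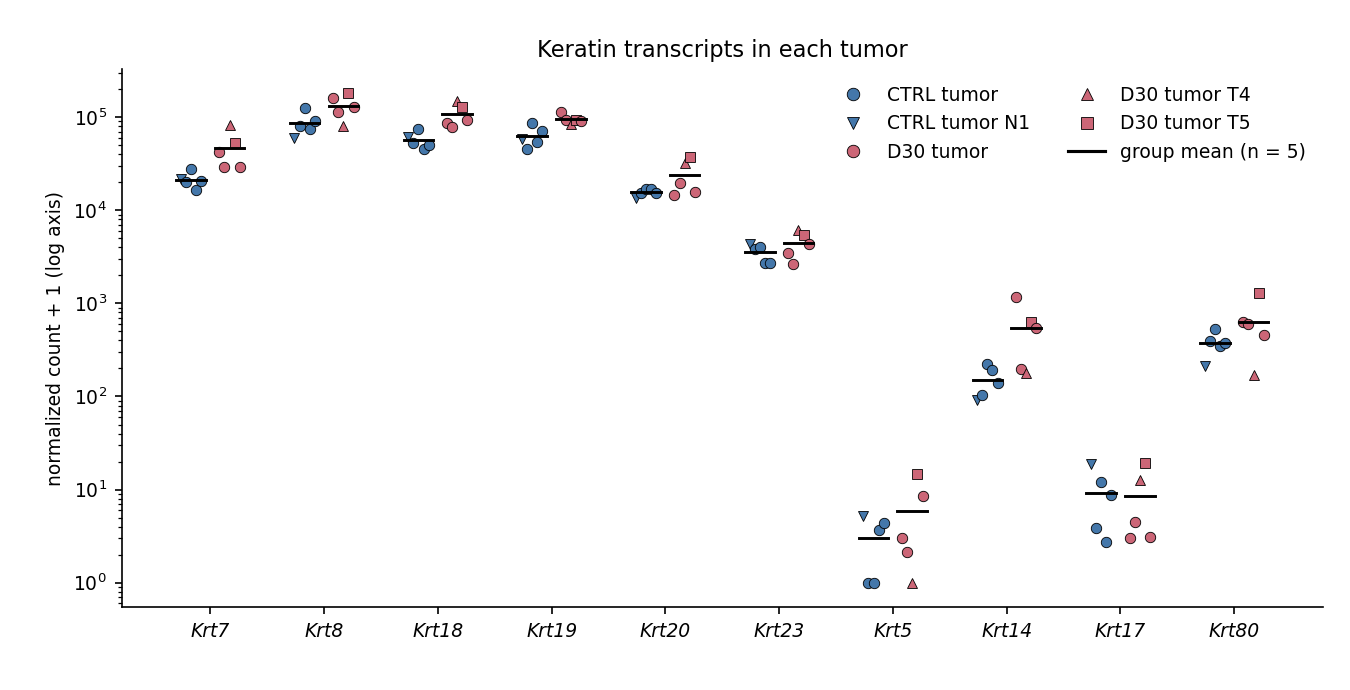
Normalized count + 1 (log axis) of each keratin in the 5 CTRL (blue) and 5 D30 (red) tumors, with the group mean as a bar and tumors N1, T4 and T5 marked by their own symbols. Krt7 and Krt18 do not overlap between the groups, Krt14 is highest in 3 D30 tumors, and Krt5 and Krt17 lie near the floor of a few reads.

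**Figure D3:**
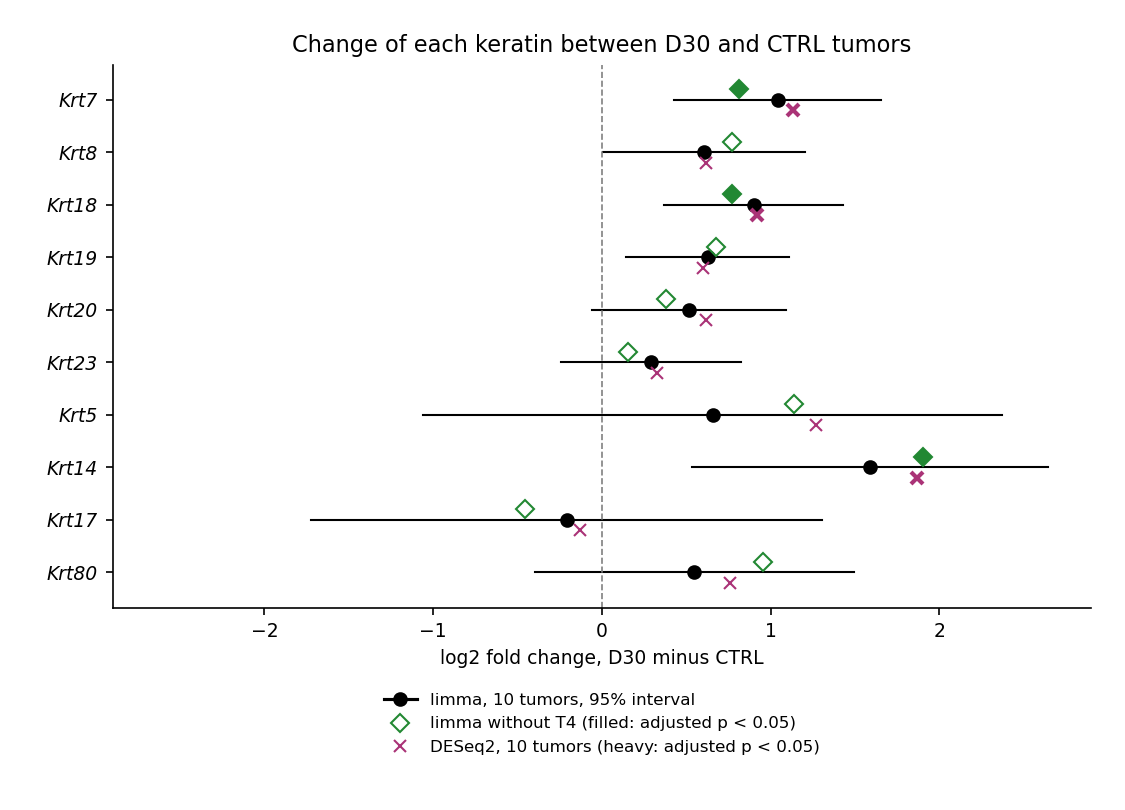
Difference of the mean log2 level, D30 minus CTRL (x axis), of each keratin in limma over 10 tumors with its 95% interval (black), in limma without T4 (green) and in DESeq2 (purple). No black point passed an adjusted p of 0.05, while Krt7, Krt18 and Krt14 did so without T4 and in DESeq2.

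Krt7, a type II keratin of ducts and other glandular epithelium (chromosome 15, 101411043 to 101430313, plus strand, GRCm38), stood at 21845, 20061, 27645, 16608 and 20735 normalized counts in CTRL tumors N1, N2, N4, N5 and N6. It stood at 41992, 29167, 81938, 52287 and 29310 in D30 tumors T1, T2, T4, T5 and T7. Every D30 tumor lay above every CTRL tumor, and T4 was the highest. The mean log2 level was higher by 1.04 (SE 0.285, 95% interval 0.43 to 1.66, n = 5 and 5, limma adjusted p = 0.0730), which is 2.06-fold. Without T4 the difference was 0.81 (limma adjusted p = 0.0363), and without T4 and T5 it was 0.65 (limma adjusted p = 0.0547). An antisense gene, Gm671, overlaps Krt7, and since counting by strand is not stated for the table, reads of the pair cannot be told apart. The same limit holds for Krt8 (Gm36026), Krt80 (Gm35853 and Mir1941) and Krt5 (Gm44323), which also overlap genes on the opposite strand.

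Krt18, the type I partner of Krt8, stood at 61199, 52479, 75293, 44920 and 50144 normalized counts in N1, N2, N4, N5 and N6. It stood at 87053, 78477, 148886, 128625 and 93839 in T1, T2, T4, T5 and T7. Here too the groups did not overlap, and T4 and T5 were the highest. The difference was 0.90 on the log2 scale (SE 0.245, 95% interval 0.37 to 1.43, limma adjusted p = 0.0715), or 1.86-fold. It was 0.77 without T4 (limma adjusted p = 0.0415) and 0.63 without T4 and T5 (limma adjusted p = 0.0698).

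Krt8, the most abundant type II keratin of simple epithelium, stood at 60374, 80380, 124082, 73958 and 90769 normalized counts in the CTRL tumors. The D30 tumors held 158506, 114101, 79597, 179473 and 127138. In contrast to Krt7 and Krt18, T4 was the lowest D30 tumor and lay within the CTRL range, and N4 was above T2. The difference was 0.60 on the log2 scale (SE 0.277, 95% interval 0.01 to 1.20, limma adjusted p = 0.284). It was 0.77 without T4 (limma adjusted p = 0.0639).

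Krt19, the smallest type I keratin and the usual marker of pancreatic duct, lies on chromosome 11 (100140810 to 100148665, minus strand, GRCm38). It stood at 58052, 45447, 86791, 54091 and 70803 normalized counts in CTRL and at 114649, 94101, 83452, 94054 and 91316 in D30. Only CTRL tumor N4 and D30 tumor T4 crossed, so that 4 of the 5 D30 tumors lay above the whole CTRL range. The difference was 0.63 on the log2 scale (SE 0.224, 95% interval 0.14 to 1.11, limma adjusted p = 0.167). It was 0.67 without T4 (limma adjusted p = 0.0674). Of the 12207 genes that averaged 100 normalized counts or more, those whose log2 pattern over the 10 tumors was nearest to Krt19 were Kalrn, Dcxr and Dgka, with root mean square differences of 0.17, 0.17 and 0.18. The deviation of Krt19 itself from its mean was 0.40 on the same scale. Nearest to Krt8 were the cytoplasmic actin gene Actg1 (0.13), Krt8-ps (0.15) and Las1l (0.17), against 0.48 for Krt8 itself.

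Krt8-ps is a pseudogene copy of Krt8, with a mean of 155 normalized counts over the 10 tumors. Of the 1859 windows of 100 bases in the principal Krt8 transcript, 314 (16.9%) occur letter for letter in Krt8-ps, so reads from them could be counted for either. The longest stretch common to both within the Krt8 coding sequence is 299 bases long and lies at bases 628 to 926 of the GENCODE M21 transcript. It is shown because a read that lies inside it cannot be placed by its sequence.
Krt8 and Krt8-ps: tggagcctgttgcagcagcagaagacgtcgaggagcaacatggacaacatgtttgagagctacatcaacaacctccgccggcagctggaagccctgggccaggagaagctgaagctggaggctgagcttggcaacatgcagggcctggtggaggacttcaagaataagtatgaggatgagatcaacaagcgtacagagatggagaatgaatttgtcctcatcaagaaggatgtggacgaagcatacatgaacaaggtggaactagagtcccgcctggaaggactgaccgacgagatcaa

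Krt8 and Krt18 encode the pair that forms the simple filament, and their genes are neighbours on chromosome 15, 23.7 kb apart on opposite strands (GRCm38, Krt8 at 101996698 to 102004482 and Krt18 at 102028180 to 102032027). The other type I genes of the 10 lie on chromosome 11. The ratio of Krt8 to Krt18 normalized counts was 0.987, 1.53, 1.65, 1.65 and 1.81 in N1, N2, N4, N5 and N6, and 1.82, 1.45, 0.535, 1.395 and 1.35 in T1, T2, T4, T5 and T7. T4 and N1, the tumors with the lowest GC contrasts, had the lowest ratios, and the other 8 lay between 1.35 and 1.82. The part of that contrast in the ratio was not tested. The mean log2 ratio differed by -0.29 between D30 and CTRL (exact permutation test, two-sided, p = 0.5, adjusted 0.5 over the 2 ratios tested, smallest p possible 0.00794). Without T4 the difference was 0.0025.

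**Figure D4:**
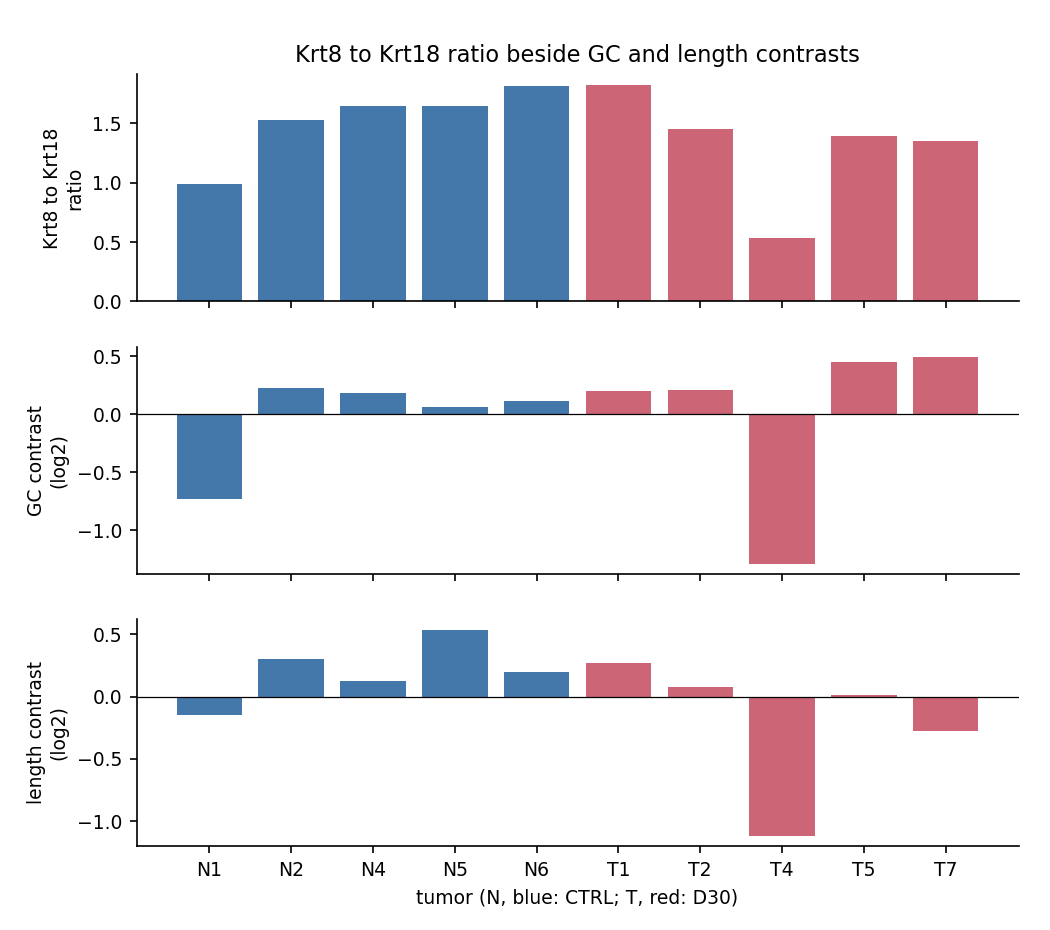
Ratio of Krt8 to Krt18 normalized counts (top), the GC contrast (middle) and the length contrast (bottom), both as the median log2 level of the 2440 genes highest in that property minus that of the 2440 lowest, in each CTRL (blue) and D30 (red) tumor. T4 and N1 have the lowest ratios (0.535 and 0.987) and the lowest GC contrasts (-1.29 and -0.73).

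Krt20, a type I keratin of intestinal and urothelial surface cells, stood at 13432, 15340, 16904, 17049 and 15376 normalized counts in CTRL. It stood at 14596, 19527, 31970, 37687 and 15782 in D30. The CTRL tumors kept within a narrow range, and 3 D30 tumors, T2, T4 and T5, lay above it, T4 and T5 the farthest, while T1 and T7 were inside it. The difference was 0.51 on the log2 scale (SE 0.266, 95% interval -0.06 to 1.09, limma adjusted p = 0.347). It was 0.32 without T5 and 0.08 without T4 and T5. Krt23, a type I keratin found in gastrointestinal tumors, ranged from 2720 to 4382 normalized counts in CTRL (median 3806) and from 2670 to 6138 in D30 (median 4378), again highest in T4 and T5. Its difference was 0.29 (SE 0.247, limma adjusted p = 0.594), 0.46 without T2, 0.16 without T4 and -0.01 without T4 and T5.

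Promoter windows from RefSeq (GRCm38.p6) were matched for 7 of the 10 keratins, and Krt17, Krt19 and Krt80 had no entry. A search of both strands for the TATA box TATAAA, the AP-1 motif TGANTCA, the GC box GGGCGG and the E-box CAGGTG in the bases before the start, exons left out, matched TATAAA in Krt20 and the E-box in Krt18, Krt23 and Krt5. These letters occur in 12.4%, 6.75%, 32.7% and 17.2% of 32851 windows of 250 bases, in the order given. Those windows kept exonic bases. The stretches searched were shorter for Krt7 (39 bases), Krt8 (110), Krt18 (214) and Krt23 (233), so matches and shares are not like for like. The Krt20 match lies 29 bases before the start. The stretches of Krt20, chr11:99438154-99438403 on the minus strand, and of Krt18, chr15:102027966-102028179 on the plus strand, are printed, Krt20 for the match nearest to a start and Krt18 for levels that did not overlap between groups, with the matched motif in capitals (TATAAA in Krt20 and the reverse complement of the E-box in Krt18). No factor was measured at them.
Krt20: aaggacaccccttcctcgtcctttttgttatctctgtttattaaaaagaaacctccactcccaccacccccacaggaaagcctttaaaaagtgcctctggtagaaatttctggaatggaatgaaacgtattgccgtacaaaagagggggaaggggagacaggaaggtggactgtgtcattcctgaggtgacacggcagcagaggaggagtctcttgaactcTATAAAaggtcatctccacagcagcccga
Krt18: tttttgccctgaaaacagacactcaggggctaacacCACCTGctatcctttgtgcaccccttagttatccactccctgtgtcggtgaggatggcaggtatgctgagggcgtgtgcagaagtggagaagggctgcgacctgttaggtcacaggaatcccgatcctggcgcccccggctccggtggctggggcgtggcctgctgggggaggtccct

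The basal pair was unequal in abundance. Krt14, the type I keratin of basal cells (chromosome 11, 100203162 to 100207548, minus strand, GRCm38), stood at 90.5, 103, 221, 194 and 137 normalized counts in the CTRL tumors. It stood at 1175, 195, 178, 635 and 537 in the D30 tumors. T1, T5 and T7 lay above all CTRL tumors, and T2 and T4 lay inside the CTRL range. The difference was 1.59 on the log2 scale (SE 0.489, 95% interval 0.53 to 2.65, limma adjusted p = 0.110), a 3.01-fold change. It was 1.90 without T4 (limma adjusted p = 0.0222) and 1.82 without T4 and T5 (limma adjusted p = 0.0258).

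Krt5, its type II partner, was near the limit of detection, at 4.21, 0, 0, 2.66 and 3.42 normalized counts in CTRL and 2.06, 1.15, 0, 13.7 and 7.46 in D30. At most 4 reads in a CTRL tumor and 12 in a D30 tumor lay behind these values, and 3 tumors of each group had 3 reads or fewer. At this depth a difference was not detectable (0.66 on the log2 scale, SE 0.793, limma adjusted p = 0.724). Krt14 exceeded Krt5 in all 10 tumors. The log2 ratio of Krt5 to Krt14, each with 1 added, differed by -0.93 between D30 and CTRL (exact permutation test, two-sided, p = 0.302, adjusted 0.5 over 2 ratios).

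Krt14 also shares sequence with a relative. Of its 1599 windows of 100 bases, 46 (2.88%) occur in Krt16, a stress keratin, and 50 of 2098 in Krt5 (2.38%) occur in Krt6a. Krt16 was at 0 to 2.10 normalized counts in CTRL and 2.13 to 19.7 in D30. Krt16 was at 19.7 in T4, where Krt14 was at 178, and at 9.25 in T1, where Krt14 was at 1175. Counting of Krt14 reads for Krt16 was not tested. The longest run that Krt14 shares with Krt16 in its coding sequence, bases 399 to 532 of the transcript, is shown. It is shorter than the read length given in the methods, so only a trimmed read could lie wholly inside it.
Krt14 and Krt16: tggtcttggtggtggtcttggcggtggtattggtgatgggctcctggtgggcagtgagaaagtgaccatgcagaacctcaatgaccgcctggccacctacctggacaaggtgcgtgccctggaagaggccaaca

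Krt17, a type I keratin of basal and stressed cells, was likewise rare, at 1.77 to 17.9 normalized counts in CTRL (median 7.70) and 2.06 to 18.3 in D30 (median 3.44). The groups covered the same range, and the difference was -0.21 on the log2 scale (SE 0.701, 95% interval -1.72 to 1.31, limma adjusted p = 0.914). Krt80, a type II keratin linked to the desmosomes of differentiating cells, stood at 209, 395, 525, 351 and 377 normalized counts in CTRL and 637, 606, 170, 1276 and 461 in D30. T4 had the lowest value of all 10 tumors and T5 the highest. The difference was 0.55 on the log2 scale (SE 0.438, limma adjusted p = 0.564). It was 0.95 without T4, 0.23 without T5 and 0.36 without N1.

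The direction of the tumor T4 differed between keratins. T4 held the highest D30 value of Krt7, Krt18 and Krt23, and the lowest D30 value of Krt8, Krt19, Krt5, Krt14 and Krt80. The GC content of the longest transcript was 52.3% for Krt7, 56.4% for Krt18 and 51.4% for Krt23, and 57.1% for Krt8, 57.6% for Krt19, 56.9% for Krt5, 57.2% for Krt14 and 53.0% for Krt80. For Krt17 (58.9%) and Krt20 (49.5%), T4 lay below T5 and above the other D30 tumors. The part of base composition or length in the T4 values of single keratins was not tested.

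Of the 44 other genes named as keratins, 24 were tested and 21 had at most 3 reads in every tumor. limma called 1 of the 24, lower in D30, where 1.36% of all genes were lower and 1.4% higher, and 8 had an unadjusted p under 0.05, where 17.3% of all genes did. This gene, Krt15, a type I keratin of basal progenitor cells, stood at 254, 231, 481, 318 and 425 normalized counts in CTRL and 136, 164, 59.0, 75.6 and 129 in D30. All D30 tumors lay below all CTRL tumors, and Krt15 fell by 1.63 on the log2 scale (SE 0.335, limma adjusted p = 0.0208). Krt14, which stands in the same type and basal class, had a difference of the opposite sign. The median difference of the 24 was 0.41.

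Of the 25 squamous and basal genes matched, 19 were tested and limma called 2 higher and none lower, against 1.4% of all genes higher and 1.36% lower. In mean log2 level 7 of the 19 were lower, and the median difference was 0.69 on the log2 scale. Lypd3, a surface protein of squamous epithelium, had at most 12.8 normalized counts in CTRL and 21.6 to 214 in D30 (4.58, SE 0.819, limma adjusted p = 0.0103). The 214 was that of T4, and the other D30 tumors reached at most 38.9. Ovol1, a zinc finger factor of epidermal differentiation, had 1.71 to 13.3 in CTRL and 16.2 to 253 in D30 (3.76, SE 0.725, limma adjusted p = 0.0150). Trp63, the factor that defines basal and squamous cells, was at 0 to 13.7 normalized counts in CTRL and 0 to 12.6 in D30, and the desmosomal cadherin Dsc3 was at 0 in all tumors. Other genes of the list were abundant in both groups and not called. The cornified envelope gene Sprr1a ranged from 5964 to 8998 normalized counts in CTRL and from 2524 to 9377 in D30, and Anxa8 from 2478 to 4527 and from 3566 to 14795. Serpinb5 ranged from 257 to 986 in CTRL and from 870 to 6212 in D30, and Ivl, the envelope protein involucrin, from 736 to 1188 and from 1218 to 2589 (0.85, limma adjusted p = 0.0695). The highest Anxa8 and Serpinb5 values were those of T4, and the other D30 tumors reached at most 6045 and 1213. The list thus held both genes at or near 0 (Dsc3 and Trp63, like Krt5) and abundant ones.

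Of 15 tested genes of the pancreatic duct 1 was called higher and none lower, again against 1.4% and 1.36% of all genes. It was Car2, the carbonic anhydrase of bicarbonate-secreting ducts, from 256 to 530 normalized counts in CTRL to 885 to 2396 in D30 (2.06, SE 0.300, limma adjusted p = 0.00391). The median difference of the 15 was 0.14, beside 0.62 for the 10 keratins. Of 18 tested intestinal genes counted here 3 were called higher and none lower. In mean log2 level 14 were higher and 4 lower, with a median difference of 1.20. Among the 4 were Mep1a, at 25.6 to 62.9 normalized counts in CTRL and 0 to 14.4 in D30 (-2.63, limma adjusted p = 0.0619), and the nuclear receptor Hnf4a (-0.84, limma adjusted p = 0.326). Gpa33, a surface antigen of intestinal epithelium, went from 452 to 1896 normalized counts in CTRL to 5214 to 8229 in D30 (2.59, limma adjusted p = 0.00162). Hnf4g, a nuclear receptor of enterocytes, rose by 3.83 and Phgr1 by 2.69 on the log2 scale (limma adjusted p = 0.00431 and 0.0134).

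Of 21 genes common to epithelium limma called 1 higher and 2 lower, against 1.4% of all genes higher and 1.36% lower. Spint2, a Kunitz inhibitor of membrane serine proteases, went from 7115 to 12505 normalized counts in CTRL to 22382 to 34112 in D30 (1.60, limma adjusted p = 0.00178). The 2 that fell were low in both groups. Esrp1, a splicing factor of epithelial cells, was at 4.57 to 14.5 normalized counts in CTRL and 0 to 1.16 in D30, and the tight junction gene Cldn7 at 6.197 to 45.2 and 0 to 4.58 (limma adjusted p = 0.00656 and 0.04998). The median difference of the list was 0.14.

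Keratin filaments end at desmosomes. Of 15 genes of keratin anchorage 2 were called higher and none lower, against 1.4% and 1.36% of all genes, with a median of 0.32. Dsg2, the desmosomal cadherin of simple epithelium, stood at 564, 326, 1010, 608 and 759 normalized counts in CTRL and 2586, 3778, 4123, 4198 and 1819 in D30 (2.36, SE 0.315, limma adjusted p = 0.00224). Pkp3, the desmosomal plaque protein plakophilin 3, stood at 1361, 1248, 2509, 1881 and 1916 in CTRL and 3783, 3857, 3611, 3401 and 3483 in D30 (1.07, SE 0.201, limma adjusted p = 0.0136). Neither gene overlapped between the groups, and 6.19% of all genes tested did not overlap either. Of 11 filament genes of other classes limma called 0, with 1 at an unadjusted p under 0.05 (Synm), against 17.3% of all genes. DESeq2 called 0 of them, and their median was -0.08. Synm, a muscle filament protein, differed by -1.83 (limma adjusted p = 0.194) and Des, the muscle filament desmin, by 0.52 (limma adjusted p = 0.441).

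**Figure D5:**
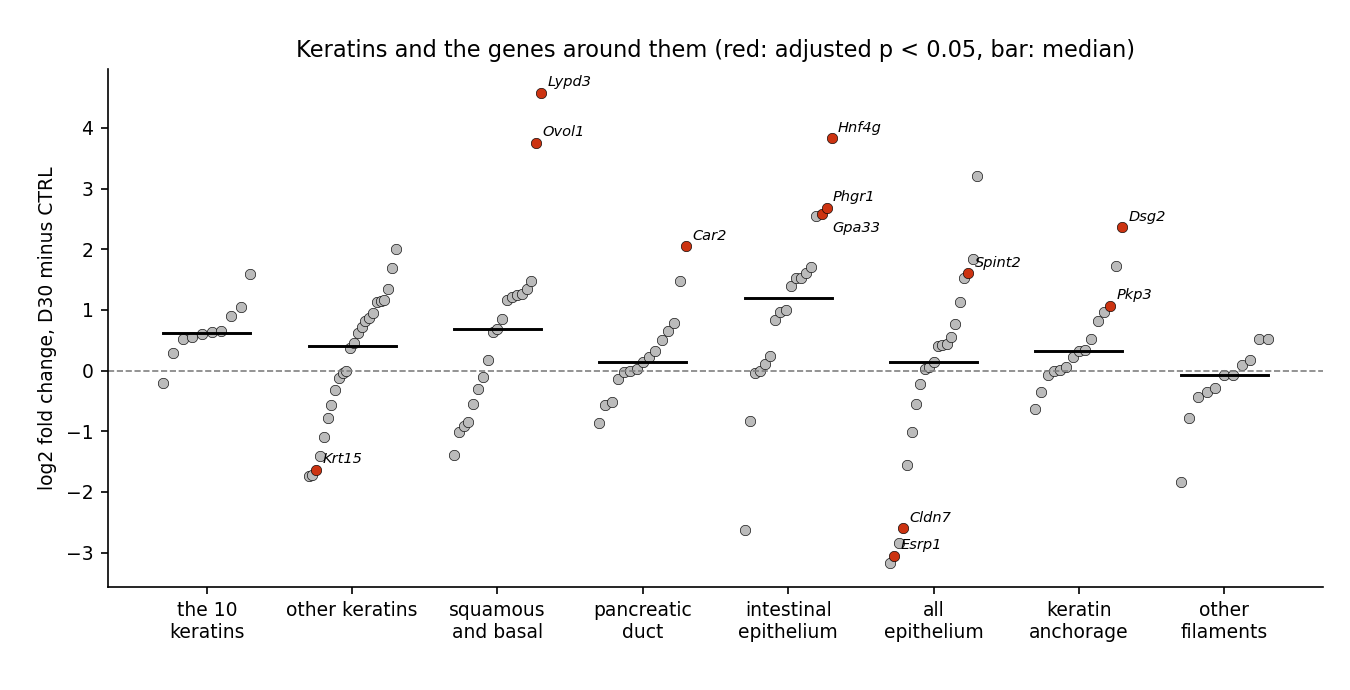
Difference of the mean log2 level, D30 minus CTRL (y axis), of the 10 keratins and of each tested gene in 7 lists, with genes called by limma in red and named, and the median of each group as a bar. The 10 keratins have a median of 0.62 and no red point, and the other lists have medians from -0.08 to 1.20.

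Over these 7 lists, limma called 12 of 123 genes tested, where it called 2.76% of all genes. The count was 34 without T4 and 39 of 143 in DESeq2, fits that called 6.43% and 8.52% of all genes. Scaling by library size in place of the deposited size factors turned the medians of the duct list and of the list common to epithelium to -0.08 and -0.04. Markers of other cell types were summed in each tumor, with no test of the sums. Of all genes tested, limma called 1.4% higher and 1.36% lower, 17.3% had an unadjusted p under 0.05, and the median difference was -0.06. Acinar genes, summed over 13 genes, ranged from 319 to 76959 normalized counts in CTRL and from 177 to 7360 in D30, with 0 of 12 called by limma (5 at an unadjusted p under 0.05, 0 called by DESeq2). Islet genes ranged from 33.6 to 1549 in CTRL and from 8.23 to 92.8 in D30, with 8 of 8 lower in mean log2 level and 4 called lower. Fibroblast genes ranged from 80408 to 142607 in CTRL and 32313 to 108203 in D30, with 10 of 10 lower in mean log2 level in D30 and 0 called by limma (7 at an unadjusted p under 0.05, 2 called by DESeq2). Endothelial genes ranged from 13335 to 21184 in CTRL and 6210 to 11272 in D30, with 9 of 9 lower in mean log2 level and Cdh5 called lower. Cdh5 itself held 7205 to 14529 in CTRL and 2480 to 6142 in D30. Leukocyte genes ranged from 5135 to 9390 and 4614 to 15736, with Csf1r called lower. Adipocyte genes ranged from 2062 to 4545 and 2060 to 3296 in the same order, most of it Cidec and Fabp4. Adipoq was at 271 in N4 and at most 7.46 in the other tumors. Skeletal muscle genes ranged from 52.2 to 71.9 and 99.7 to 169, with Myh1, Myh2 and Myh4 at 0 in all tumors. Genes of mesothelium, a simple epithelium that carries the same simple keratins, ranged from 35816 to 43509 in CTRL and 28929 to 97789 in D30, almost all of it Msln, and were highest in T5 and T4. That sum thus follows Msln and not the rest of the list. Of the 10 genes of mesothelium, 4 were higher and 6 lower in mean log2 level in D30. limma called 1 of them, Muc16, which fell by 4.22 on the log2 scale. The part of these cell types in the keratin levels was not tested.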

How the data were processed

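The members and gene lists were chosen with earlier results of these data known. RNA of 5 CTRL and 5 D30 tumors was prepared with a strand-specific kit and sequenced in pairs, and per the labels the authors used Trim Galore, STAR 2.7.0e and DESeq2 with GRCm39, whereas the methods name hg38. RSEM is named among the software of the study, but how the reads of this table were counted, and how reads shared by similar genes were assigned, is not given in the sources used here. The authors deposited 1 signal per gene and tumor, the normalized count, in which reads are divided by a size factor. All values (100%) were whole multiples of 1 step per tumor (tolerance 0.01), so the reads were recovered (29192261 to 42122304 per tumor). Precision is limited by the number of tumors, except for Krt5 and Krt17, where a few reads limit it. Identifiers were matched without version to GENCODE M21 (GRCm38, 94.1% of 55359 genes), and all 10 keratins carry a version 1 higher than M21 gives, and positions are quoted from M21.

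The methods of the paper name DESeq2, a count test, which was run here as an alternative. Since the values are normalized, limma 3.58.1 (R 4.3.3) with a mean-variance trend was fitted on log2(normalized count + 1) over the 24560 genes with a mean of at least 1, so that fold changes of low genes are understated. P-values were Benjamini-Hochberg adjusted over all of them, and an adjusted p under 0.05 was a call. edgeR 4.0.16 (707 genes called with TMM) and DESeq2 1.42.0 (1858 called) were run on the recovered reads. For ratios, an exact permutation test was used, two-sided (scipy 1.17.1). Scripts were tested on simulated data. Levels between keratins were divided by the merged exon length.

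All 10 members are named. Of each gene list those called were named, at most 4 by smallest p, or else the 2 with the smallest p. Further marker genes (Cdh1, Epcam, Vim, Trp63, Dsc3, Sprr1a, Anxa8, Serpinb5, Ivl, Mep1a, Hnf4a, Cdh5, Csf1r, Muc16, Msln, Krt16) were chosen after their values were seen. Il36rn and Eppk1 had no match by name, and 1 gene of the intestinal list is not reported here and is left out of its counts and median. Pseudocount, filter, scaling, test, length and left-out tumors were varied. Composition over principal transcripts and the fit without T4 and T5 were added after seeing the data.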

Additional observations from a re-analysis of the deposited data

How the results depend on the processing

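The number of keratins called was 0 in limma under each other pseudocount, filter and scaling and in edgeR, 3 in DESeq2, 0 to 3 when 1 tumor was left out (3 without T4) and 1 without T4 and T5, a fit chosen after seeing the data. Genes called in the surrounding lists numbered 39 in DESeq2 and 10 to 34 when 1 tumor was left out (34 without T4). The log2 difference of Krt23 became -0.0090 without T4 and T5, and that of Krt17 ranged from -0.61 to 0.13 (0.13 without N1, 0.06 without T1, 0.05 without T7). The Krt8 to Krt18 ratio difference ranged from -0.44 to 0.0025 with 1 tumor left out (0.0025 without T4) and was 0.036 without T4 and T5. That of Krt5 to Krt14 was -1.27 with a pseudocount of 8 (exact permutation p = 0.0317) and -1.42 to -0.49 with 1 tumor left out. The Krt7 share differed by 2.50 percentage points when not divided by length. Over all alternatives the adjusted p ranged from 0.00675 to 0.188 for Krt7, 0.00608 to 0.282 for Krt18 and 0.00330 to 0.266 for Krt14. The cause of these shifts was not tested. Scaling by library size moved the median of all genes from -0.06 to -0.27, and the 9 keratins higher in D30 stayed higher. No paired analysis was possible because the columns carry no replicate number of the labels. The fit with a replicate block was not run for this reason. Levels of Krt5 and Krt17 were limited by depth.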
